A study of Mus musculus with 9 samples.

Results

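The 10 genes described here encode the vascular endothelial growth factor (VEGF) ligands Vegfa, Vegfb and Vegfc, their receptors Flt1 (VEGFR1), Kdr (VEGFR2) and Flt4 (VEGFR3), the angiopoietins Angpt1 and Angpt2, and the tyrosine kinases Tek (TIE2) and Tie1. They were chosen by gene symbol and make up 10 of the 32285 genes in the count matrices. All 10 had UMIs (unique molecular identifiers, each counting 1 captured RNA molecule) in each of the 9 libraries.

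The samples were nuclei isolated from epididymal adipose tissue (epiAT), a visceral depot, of male C57BL/6J mice, read by single-nucleus RNA sequencing (snRNA-seq) in droplets. Each diet group had 1 library, in which the nuclei of 5 mice were pooled. The control groups C, CC and CCC received chow and were 18, 26 and 39 weeks old. The methods name a low-fat control diet for C and a later change to standard chow for the older control mice. H mice were 18 weeks old after 12 weeks of high-fat diet (HFD), and HH mice were 31 weeks old after 25 weeks of HFD. HC mice were 26 weeks old, with 12 weeks of HFD and then 8 weeks of chow. HHC mice were 39 weeks old, with 25 weeks of HFD and then 8 weeks of chow. The remaining pair was 30 weeks old and ate HFD during the last 4 weeks: CCH mice had been on chow until then, whereas HCH mice had gone through 12 HFD weeks followed by 8 chow weeks. The library names carry the set S075 for C, H, HH, CCH and HCH and the set S019 for CC, CCC, HC and HHC, and what the sets stand for is not stated.

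VEGF-A is secreted by many cell types, above all under low oxygen, and drives sprouting and maintenance of blood vessels through KDR on endothelial cells, while FLT1 binds VEGF-A and VEGF-B tightly and signals weakly. VEGF-C acts on FLT4 and directs the growth of lymphatic vessels. ANGPT1 activates TEK and keeps vessels quiet and tight, ANGPT2 is a context-dependent antagonist of TEK that accompanies vessel remodelling, and TIE1 is a partner of TEK without a firmly established ligand of its own.

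Nuclei were placed in 12 classes by marker genes, none of which was a member, and are called X-like because the names rest on markers alone. Of 91687 barcodes, 73308 nuclei were kept and 55359 (75.5%) received a class, while 16640 (22.7%, from 12.9% in CCH to 41.8% in CCC) had no class. Adipocyte-like nuclei made up between 1.94% (H) and 21.5% (C) of the kept nuclei of a library, macrophage-like nuclei between 5.59% (CCC) and 42.5% (H), and blood endothelial-like nuclei between 3.38% (HHC) and 9.99% (C). Markers kept aside for checking were highest by mean level in the named class for 6 of 6 adipocyte and 5 of 6 blood endothelial genes. The exception was Rgcc, which was highest in adipocyte-like nuclei. The same held for 3 of 6 progenitor and 6 of 6 macrophage genes. Of the macrophage genes, F13a1 led in all 9 libraries, Dab2 and Trem2 in 6, Lyz2 in 5, and Cd68 and Ctss in 4. By mean, Lyz2 stood at 586 CPM in macrophage-like and 570 in T/NK-like nuclei. Library totals ran from 22599619 to 66615262 UMIs, and at most 0.493% of the barcodes of one library recurred in another. Levels below are UMIs of the gene per 1000000 UMIs of all counted genes in the class and library (CPM), and intervals are 95% and cover counting error only.

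The receptor genes, like the ligand genes Vegfc and Angpt2, had their highest level in an endothelial class (levels below). Only the start regions of the receptor genes are shown here. They are the 250 bases before the RefSeq start of each gene on its own strand (GRCm38.p6), with each GGAA, or TTCC on the other strand, in capitals. GGAA is the core bound by ETS-family transcription factors, which many endothelial genes use. The regions lie at chr5:147726012-147726261 on the minus strand for Flt1, chr5:75978456-75978705 on the minus strand for Kdr, chr11:49609429-49609678 on the plus strand for Flt4, chr4:94739039-94739288 on the plus strand for Tek and chr4:118489850-118490099 on the minus strand for Tie1.
Flt1: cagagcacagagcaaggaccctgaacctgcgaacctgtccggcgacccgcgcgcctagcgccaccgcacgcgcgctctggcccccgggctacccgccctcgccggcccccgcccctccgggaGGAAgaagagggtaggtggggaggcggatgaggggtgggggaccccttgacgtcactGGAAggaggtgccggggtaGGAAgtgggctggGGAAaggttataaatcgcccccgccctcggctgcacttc
Kdr: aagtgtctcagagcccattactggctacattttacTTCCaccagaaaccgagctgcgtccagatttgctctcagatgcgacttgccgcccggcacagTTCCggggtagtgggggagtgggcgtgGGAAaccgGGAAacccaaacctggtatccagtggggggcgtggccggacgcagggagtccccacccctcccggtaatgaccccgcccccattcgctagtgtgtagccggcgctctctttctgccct
Flt4: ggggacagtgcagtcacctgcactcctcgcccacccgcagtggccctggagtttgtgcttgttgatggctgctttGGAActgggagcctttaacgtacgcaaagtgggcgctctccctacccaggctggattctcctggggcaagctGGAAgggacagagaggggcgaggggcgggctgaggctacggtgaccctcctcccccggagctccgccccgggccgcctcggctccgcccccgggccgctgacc
Tek: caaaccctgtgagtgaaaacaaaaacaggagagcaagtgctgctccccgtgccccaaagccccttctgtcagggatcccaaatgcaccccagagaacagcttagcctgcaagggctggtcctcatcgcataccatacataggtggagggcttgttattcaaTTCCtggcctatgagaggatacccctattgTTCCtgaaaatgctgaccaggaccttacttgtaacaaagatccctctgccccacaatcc
Tie1: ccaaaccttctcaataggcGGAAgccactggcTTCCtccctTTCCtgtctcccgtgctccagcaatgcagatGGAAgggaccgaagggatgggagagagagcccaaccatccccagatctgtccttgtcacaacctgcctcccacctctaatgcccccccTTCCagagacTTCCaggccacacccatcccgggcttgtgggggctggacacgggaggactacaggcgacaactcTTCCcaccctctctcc
The Tie1 region held 7 copies of the motif, a number reached by 3.82% of 32851 mouse start regions of the same length. Flt1 and Kdr held 4 each, where 33.4% of start regions held 4 or more, and Flt4 and Tek held 2 each, where 76.8% held 2 or more. The median over all start regions was 3. Of the members whose regions are not shown, Vegfa, highest in adipocyte-like nuclei, held 6 before its first listed start and 2 before its second. Of all start regions, 8.69% held 6 or more. Vegfb, also highest in adipocyte-like nuclei, held 1. Vegfc, highest in blood endothelial-like nuclei, held 1 as well, where 93.4% of start regions held 1 or more. A letter match in a window describes the sequence and not a bound site.

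Each member had its own distribution over the classes, and for 8 of the 10 members the level in the highest class exceeded that of the next class in the edgeR quasi-likelihood test (Benjamini-Hochberg adjusted p under 0.05, 9 libraries), as for 36.6% of the 14274 genes. DESeq2 called 7, beside 37.7% of genes. Without the upper limit on genes per nucleus 6 were called, beside 39% of genes, with Vegfc (adjusted p = 0.153) and Kdr (adjusted p = 0.0519) lost. The highest class of every member was the same under all 15 alternative settings tried. The ligands divided among adipocyte-like (Vegfa, Vegfb and, without a called difference from the next class, Angpt1), blood endothelial-like (Vegfc) and lymphatic endothelial-like nuclei (Angpt2), whereas all 5 receptors were highest in blood or lymphatic endothelial-like nuclei.

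**Figure D1:**
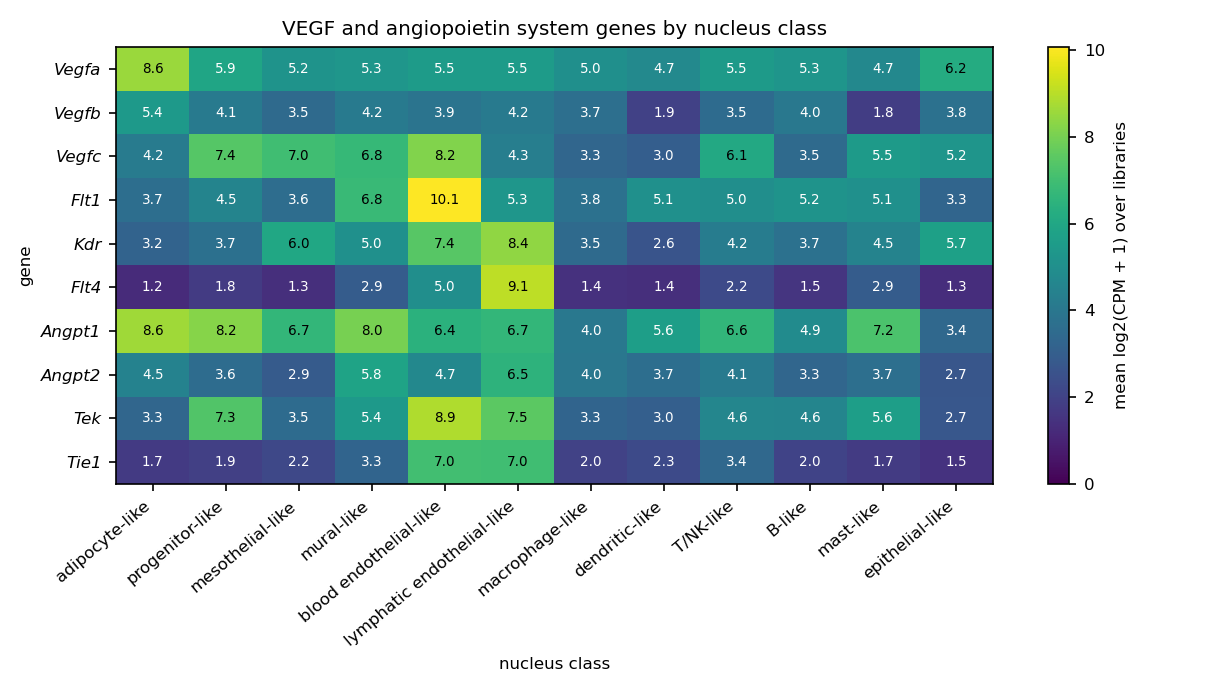
Mean over libraries of log2(CPM + 1) of each member (rows) in the 12 marker-defined nucleus classes (columns), printed in each cell. Colours compare classes within a row: Vegfa and Vegfb are brightest in adipocyte-like nuclei, Flt1 and Tek in blood endothelial-like nuclei and Flt4 and Kdr in lymphatic endothelial-like nuclei.

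Vegfa, which lies on chromosome 17 (46016993 to 46032369, minus strand, GENCODE vM21 on GRCm38), was a transcript of adipocyte-like nuclei. Its level there exceeded that in epithelial-like nuclei, the next class, by 2.70 ± 0.21 (SE) on the log2 scale (edgeR adjusted p = 4.64e-21), a contrast in which 25.2% of genes were called higher. Adipocyte-like nuclei carried a median of 65.4% of the Vegfa UMIs of the gated nuclei of a library, from 34.3% in H to 83.0% in C. In this class Vegfa stood at 644, 389 and 417 CPM in C, CC and CCC. On HFD it stood at 362 CPM in H, 381 in HH, 486 in CCH and 311 in HCH. After the return to chow it stood at 253 CPM in HC and 264 in HHC. The HFD libraries overlapped the chow libraries, while both libraries from mice returned to chow lay below every other library. No overlap and a lower level in that comparison was found for 14% of the genes compared. The difference of HC and HHC from chow was -0.96 ± 0.37 on the log2 scale and did not pass the test (edgeR adjusted p = 0.523).

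In 9 of the 11 other classes the chow libraries lay above the rest for Vegfa. In progenitor-like nuclei Vegfa stood at 124, 139 and 96.6 CPM in C, CC and CCC. It stood at 44.9 CPM in H, 49.1 in HH, 59.4 in CCH and 30.0 in HCH, and at 39.6 in HC and 37.9 in HHC. All 6 libraries with HFD in their history therefore lay below the 3 chow libraries. In blood endothelial-like nuclei the chow libraries held 108, 143 and 70.6 CPM of Vegfa, the HFD libraries 22.5 (H), 28.2 (HH), 51.0 (CCH) and 19.2 (HCH), and HC and HHC 30.4 and 38.6. In macrophage-like nuclei the chow libraries held 58.5, 108 and 51.4 CPM and the others 14.7 to 31.8. Of all genes compared, 7.7% lay wholly lower on HFD in progenitor-like nuclei, 7.76% in blood endothelial-like nuclei and 8.83% in macrophage-like nuclei, and 9.4%, 8.85% and 15% lay wholly lower after it. Vegfa was also wholly lower than chow in both other diet states in 6 smaller classes. The share of genes lower in this way on HFD and after it was 9.38% and 12.8% in mesothelial-, 5.84% and 9.65% in mural- and 5.14% and 16.5% in epithelial-like nuclei. It was 7.55% and 9.26% in lymphatic endothelial-, 7.35% and 7.65% in T/NK- and 5.93% and 8% in B-like nuclei, counted over genes with at least 180 UMIs, which Vegfa did not reach in these 3 classes. In dendritic-like nuclei the states overlapped, at 28.3 to 244 CPM on chow, 7.64 to 34.5 on HFD and 26.7 to 55.7 after it. They also overlapped in mast-like nuclei, at 25.9 to 225, 13.7 to 38.8 and 34.2 to 44.1 CPM, and no library held more than 8 Vegfa UMIs in either class.

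By diet state these Vegfa differences did not pass the edgeR test in the 3 larger of these classes, and the 6 smaller ones were not fitted. HFD at harvest against chow gave -1.49 ± 0.25 in progenitor-like nuclei (adjusted p = 0.0965), -1.85 ± 0.36 in blood endothelial-like nuclei (adjusted p = 0.0534) and -1.73 ± 0.33 in macrophage-like nuclei (adjusted p = 0.0621). Chow after HFD gave -1.68 ± 0.32 (adjusted p = 0.278), -1.67 ± 0.46 (adjusted p = 0.534) and -2.04 ± 0.43 (adjusted p = 0.142) in the same order. Transcripts of adipocytes were also lower on HFD than on chow in these 3 classes. After HFD they were lower in macrophage-like nuclei and overlapped chow in progenitor- and blood endothelial-like nuclei. The summed level of the 14 adipocyte markers in progenitor-like nuclei was 1187 to 4328 CPM in the chow libraries, 296 to 845 on HFD and 814 to 1277 after it, with all 14 detected in each library. In blood endothelial-like nuclei that sum was 2274 to 5815 CPM on chow, 1249 to 2234 on HFD and 2307 to 2938 after it, and in macrophage-like nuclei 1545 to 4313, 378 to 1217 and 851 to 1207. Per 1000 UMIs of these markers, Vegfa counted a median of 18.6 UMIs in adipocyte-like nuclei, 16.7 in blood endothelial-like, 26.1 in macrophage-like and 59.2 in progenitor-like nuclei. By library, progenitor-like nuclei counted 32.1 (CC) to 104 (C) on chow and 44.1 (HCH) to 152 (H) on HFD. After it they counted 31.0 (HC) to 46.5 (HHC). Macrophage-like nuclei counted 25.0 (CC) to 37.9 (C), 25.2 (HCH) to 58.0 (H) and 12.2 (HC) to 24.9 (HHC). Blood endothelial-like nuclei counted 16.1 (CCC) to 47.6 (C), 9.62 (HCH) to 22.8 (CCH) and 10.3 (HC) to 16.7 (HHC). In the 6 smaller classes the summed adipocyte markers were also wholly lower on HFD than on chow. After HFD they were wholly lower in mesothelial-like nuclei (1829 to 4769 CPM on chow, 1032 to 1724 after it). The same held in T/NK- (3167 to 7760, 1614 to 2727) and B-like nuclei (3206 to 5381, 1427 to 2195). They overlapped chow after HFD in mural-, lymphatic endothelial- and epithelial-like nuclei. The part of adipocyte RNA in the Vegfa differences of the other classes was not tested.

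**Figure D2:**
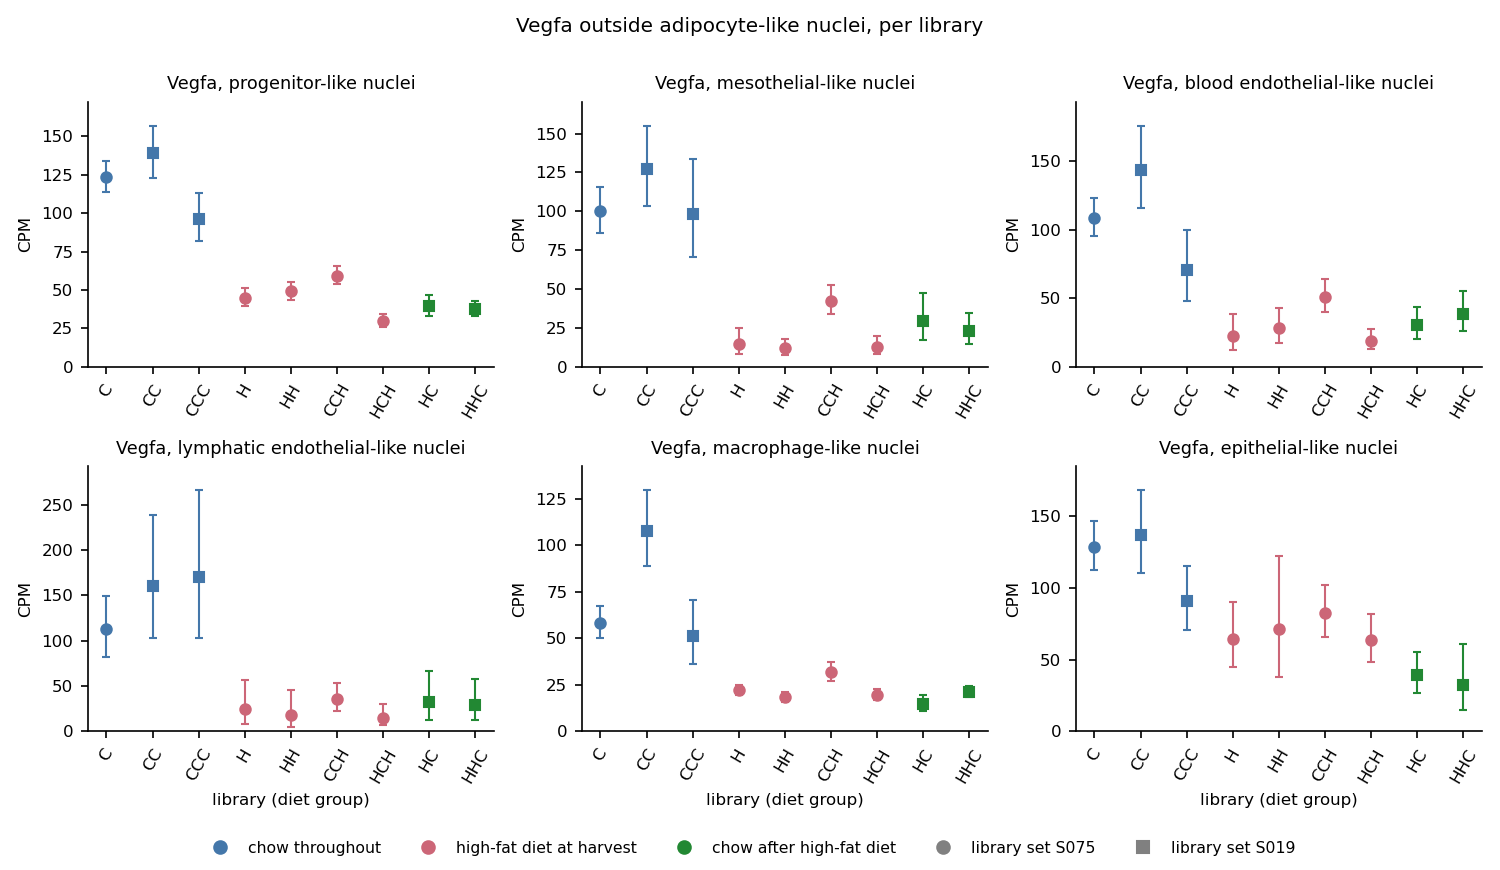
Vegfa level (CPM, linear axis from 0) in 6 nucleus classes other than adipocyte-like, 1 point per library with its exact Poisson 95% interval, coloured by diet state and shaped by library set. In each panel the 3 chow libraries lie above the 4 libraries on high-fat diet and the 2 returned to chow.

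Vegfb (chromosome 19, 6982473 to 6987651, minus strand) was likewise highest in adipocyte-like nuclei, by 1.34 ± 0.24 on the log2 scale over mural-like nuclei (edgeR adjusted p = 1.53e-06), where 22.5% of genes were called higher. Adipocyte-like nuclei held 18.8, 31.0 and 38.0 CPM of Vegfb in C, CC and CCC. They held 43.4 CPM in H, 73.1 in HH, 33.4 in CCH and 52.2 in HCH, and 52.5 in HC and 58.9 in HHC. Both libraries returned to chow lay above all 3 chow libraries, as did 8.15% of genes, and on HFD only CCH, with 4 weeks of HFD and no earlier exposure, lay inside the chow range. In HC and HHC Vegfb thus lay on the other side of the chow range from Vegfa in the same nuclei, while on HFD Vegfa overlapped chow. The Vegfb log2 differences from chow were 0.63 ± 0.28 on HFD (edgeR adjusted p = 0.197) and 0.93 ± 0.32 after it (edgeR adjusted p = 0.482). Neither passed the test, and the genes were not tested against each other.

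**Figure D3:**
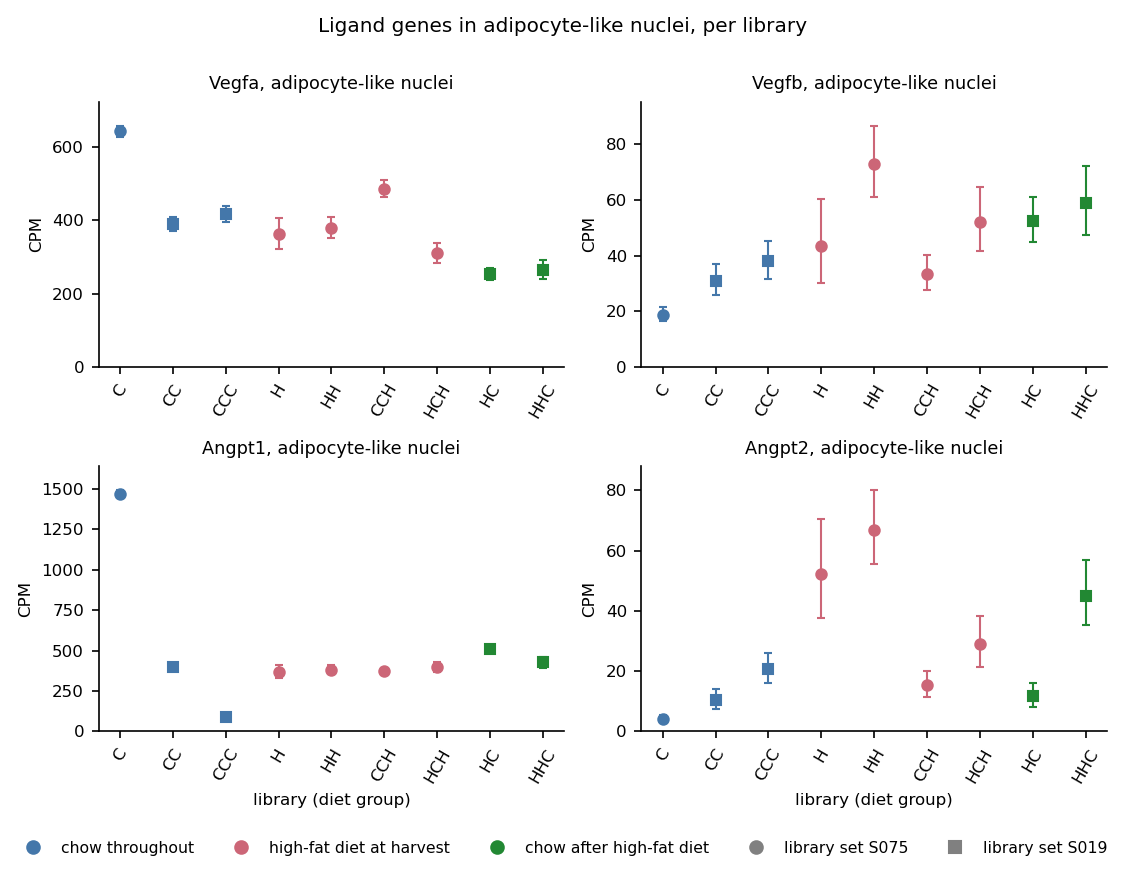
Levels of Vegfa, Vegfb, Angpt1 and Angpt2 in adipocyte-like nuclei (CPM, linear axes from 0), 1 point per library with its exact Poisson 95% interval, coloured by diet state and shaped by library set. Vegfa is lowest in HC and HHC, Angpt1 is set apart by C at 1470.0 CPM and CCC at 89.1, and Angpt2 is highest in HH at 67.0.

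Vegfc (chromosome 8, 54077606 to 54187096, plus strand) was highest in blood endothelial-like nuclei, by 0.80 ± 0.30 on the log2 scale over progenitor-like nuclei (edgeR adjusted p = 0.0214), where 23.7% of genes were called higher. The call was lost with DESeq2 (adjusted p = 0.0634), without the upper limit on genes (adjusted p = 0.153) and in edgeR without H (adjusted p = 0.0718), HH (adjusted p = 0.122) or HHC (adjusted p = 0.0553). Because progenitor-like nuclei were more numerous, they carried a median of 56.3% of the Vegfc UMIs and blood endothelial-like nuclei 18.3%. Within the blood endothelium the median level was highest in nuclei led by arterial markers such as Gja5 and Sema3g, at 524 to 1810.5 CPM (median 1236, 300 nuclei in 8 libraries). Nuclei led by capillary markers held 80.1 to 373 CPM (median 278) and those led by venous markers 55.4 to 459.9 (median 274). Nuclei led by no one of these marker sets held 381 to 1204 CPM (median 536), which overlapped the arterial range. The capillary-marker nuclei were more numerous and counted 1504 Vegfc UMIs, against 1051 in the arterial ones. The capillary markers were Rgcc, Car4, Btnl9, Gpihbp1 and Cd36. Of these, Rgcc was highest in adipocyte-like nuclei and Btnl9 also gated the class.

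Vegfc in blood endothelial-like nuclei stood at 390.5, 103 and 157 CPM in C, CC and CCC. It stood at 402 CPM in H, 418 in HH, 608 in CCH and 552 in HCH, and at 168 in HC and 226 in HHC. All HFD libraries exceeded the chow libraries, as for 6.08% of genes, but C lay close to H and HH. The levels divided just as cleanly by library set, since all 5 S075 libraries, C included, lay above all 4 S019 libraries, which held for 8.27% of genes. The log2 difference of HFD from chow was 1.15 ± 0.38 (edgeR adjusted p = 0.145), and the diet state and the set cannot be told apart here except through C. Capillary-marker nuclei alone gave the same split, with 278 to 373 CPM in the S075 libraries and 80.1 to 185 CPM in the S019 libraries.

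Vegfc in progenitor-like nuclei followed a different order. It stood at 202, 164 and 293 CPM in C, CC and CCC, at 153 in H, 99.1 in HH, 293 in CCH and 297 in HCH, and at 90.3 in HC and 111 in HHC. The 2 libraries returned to chow lay below all chow libraries, as for 9.4% of genes, with a log2 difference of -1.16 ± 0.48 (edgeR adjusted p = 0.458). CCH and HCH, both with 4 final weeks of HFD, were the only HFD libraries at the level of CCC.

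Flt1 (chromosome 5, 147561604 to 147726011, minus strand) marked blood endothelial-like nuclei, where its level exceeded that in mural-like nuclei, the next class, by 3.17 ± 0.35 on the log2 scale (edgeR adjusted p = 9.39e-13), where 12.4% of genes were called higher, and these nuclei carried a median of 82.0% of its UMIs. The level was 1246, 996 and 876 CPM in C, CC and CCC, 1304 in H, 1088 in HH, 1339.7 in CCH and 1200.4 in HCH, and 912 in HC and 882 in HHC. CCC and CCH held the lowest and the highest level, and the diet states overlapped. Nuclei led by venous markers (median 1157 CPM) and capillary markers (median 1205 CPM) held more Flt1 than those led by arterial markers (median 724 CPM). In mural-like nuclei Flt1 ran from 19.4 CPM in H to 479.5 in CCC, and the 14 blood endothelial markers there summed to 446 to 3033 CPM on chow, 243 to 987 on HFD and 875 to 1804 after it. Their part in the mural Flt1 level was not tested.

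Kdr (chromosome 5, 75932827 to 75978458, minus strand) was highest in lymphatic endothelial-like nuclei, by 0.98 ± 0.24 on the log2 scale over blood endothelial-like nuclei (edgeR adjusted p = 0.00109), where 7.17% of genes were called higher. Blood endothelial-like nuclei in turn exceeded mesothelial-like nuclei by 1.35 ± 0.25 (edgeR adjusted p = 2.70e-06). In lymphatic endothelial-like nuclei Kdr stood at 285, 281 and 313 CPM on chow, at 419.7 in H, 437 in HH, 322 in CCH and 401 in HCH, and at 262 in HC and 367 in HHC, so all HFD libraries lay above the chow libraries, as for 7.73% of genes. The 14 blood endothelial markers, 12 to 14 of them detected, summed in this class to 2786 to 3593 CPM on chow, 3604 to 4138 on HFD and 2822 to 3623 after it, and their part in the Kdr level was not tested. In blood endothelial-like nuclei it stood at 83.9, 343 and 218 CPM in C, CC and CCC, at 166 in H, 141 in HH, 166 in CCH and 201 in HCH, and at 207 in HC and 136 in HHC. C and CC, both chow libraries, held the lowest and the highest level, so the diet states overlapped fully. Within this class Kdr was highest in capillary-marker nuclei, at 119 to 359 CPM (median 247), against medians of 81.0 CPM in venous-marker, 34.4 in undecided and 22.3 in arterial-marker nuclei.

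Flt4 (chromosome 11, 49609263 to 49652739, plus strand), the VEGF-C receptor, was a lymphatic transcript. Its level in lymphatic endothelial-like nuclei exceeded that in blood endothelial-like nuclei by 4.11 ± 0.22 on the log2 scale (edgeR adjusted p = 2.65e-29), and this class carried a median of 70.4% of its UMIs. It stood at 361, 561 and 546 CPM in C, CC and CCC, at 459 in H, 379 in HH, 597 in CCH and 476 in HCH, and at 835 in HC and 873 in HHC. Both libraries returned to chow lay above all others, and 11.8% of genes lay above the chow libraries in this way. The ratios were 1.49 (1.14 to 1.95) for HC to CC and 1.60 (1.20 to 2.15) for HHC to CCC. The lymphatic class held only 58 to 242 nuclei per library and was not fitted by diet state.

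**Figure D4:**
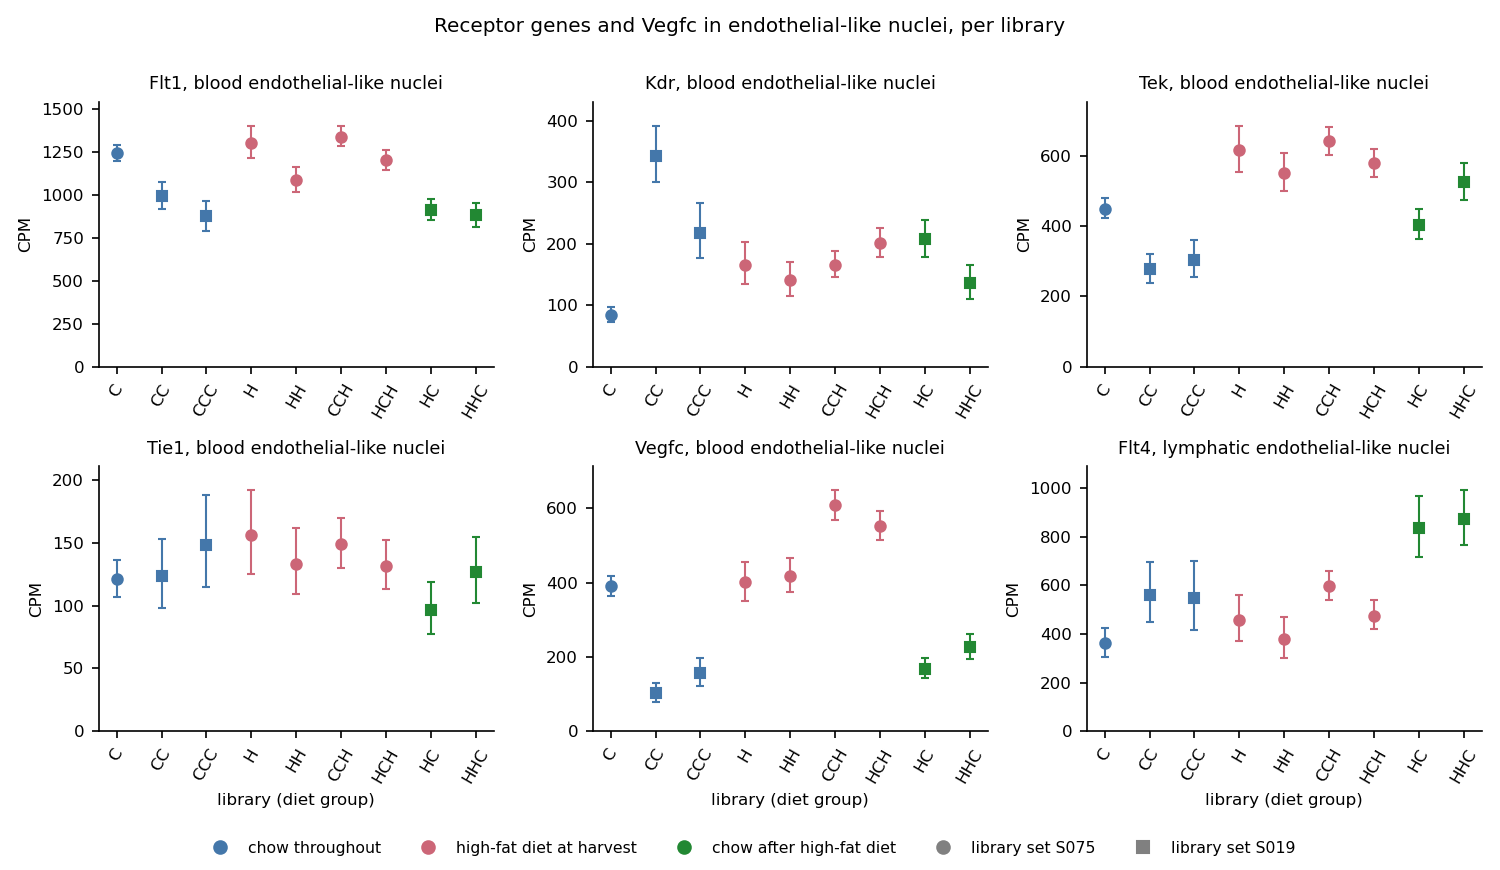
Levels of Flt1, Kdr, Tek, Tie1 and Vegfc in blood endothelial-like nuclei and of Flt4 in lymphatic endothelial-like nuclei (CPM, linear axes from 0), 1 point per library with its exact Poisson 95% interval, coloured by diet state and shaped by library set. Tie1 lies between 96.6 and 156 CPM, Vegfc is high in all S075 libraries (circles) and Flt4 is highest in HC and HHC.

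Angpt1 (chromosome 15, 42424723 to 42676977, minus strand, overlapped by the antisense gene Gm17473) was spread over adipocyte-, progenitor- and mural-like nuclei, and neither step of that order was called over all 9 libraries: 0.52 ± 0.29 on the log2 scale from progenitor to adipocyte (edgeR adjusted p = 0.131, with 25.1% of genes called higher) and 0.36 ± 0.31 from mural to progenitor (edgeR adjusted p = 0.401). The first step was called without CCC (0.82, edgeR adjusted p = 0.0216) and came to 0.31 without C (edgeR adjusted p = 0.427). Adipocyte-like nuclei held 1470.0, 399 and 89.1 CPM of Angpt1 in C, CC and CCC. They held 369 CPM in H, 379.6 in HH, 372 in CCH and 398 in HCH, and 511 in HC and 426 in HHC. The 3 chow libraries thus spanned a wider range than all other libraries together, with the youngest mice highest and the oldest lowest, whereas the 6 libraries with HFD in their history stayed between 369 and 511 CPM. C also differs from CC and CCC in diet and library set. The ratio of H to C was 0.251 (0.223 to 0.281), that of HC to CC 1.28 (1.19 to 1.37) and that of HHC to CCC 4.79 (4.17 to 5.50). The log2 difference of HFD from chow, -1.08 ± 0.67 (edgeR adjusted p = 0.343), became 0.46 (edgeR adjusted p = 0.612) without C and -2.28 with the library set as a term.

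Angpt1 was far steadier in stromal classes. Progenitor-like nuclei held 375, 309 and 287 CPM in C, CC and CCC, 222 in H, 255 in HH, 296 in CCH and 329 in HCH, and 393 in HC and 274 in HHC. Mural-like nuclei, which are pericytes and smooth muscle cells around vessels and a known source of ANGPT1, held 396, 194 and 134 CPM in the same chow order, 359, 336, 302 and 274 on HFD (H, HH, CCH, HCH), and 221 and 222 in HC and HHC. The diet states overlapped in both classes. In macrophage-like nuclei Angpt1 stood at 69.7 CPM in C, 84.5 in CC and 10.8 in CCC against 2.96 to 10.8 on HFD, and at 46.9 in HC and 17.6 in HHC, inside the chow range. Most Angpt1 UMIs lay in progenitor-like (median 51.0%) and adipocyte-like nuclei (32.8%). In macrophage-like nuclei the 14 adipocyte markers summed to 1545 to 4313 CPM on chow, 378 to 1217 on HFD and 851 to 1207 after it. The 14 progenitor markers summed there to 1876 to 2422, 1352 to 2477 and 960.1 to 1121 CPM, and the 14 blood endothelial markers to 249 to 619, 100.4 to 183 and 263 to 345 CPM. The part of RNA from other classes was not tested.

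Angpt2 (chromosome 8, 18690263 to 18741562, minus strand, lying inside Mcph1 on the opposite strand) was highest in lymphatic endothelial-like nuclei, by 0.87 ± 0.29 on the log2 scale over mural-like nuclei (edgeR adjusted p = 0.0162), where 10.9% of genes were called higher, and mural-like nuclei exceeded blood endothelial-like nuclei by 1.14 ± 0.30 (edgeR adjusted p = 0.00170). In lymphatic endothelial-like nuclei it stood at 119.5, 73.5 and 107 CPM in C, CC and CCC, 68.3 in H, 178 in HH, 118 in CCH and 135 in HCH, and 41.3 in HC and 58.2 in HHC. Both libraries returned to chow lay below the chow libraries in this class, as for 9.26% of genes, and the HFD libraries overlapped them.

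Macrophage-like nuclei nevertheless carried most Angpt2 UMIs of the gated nuclei in H (68.3%), HH (55.6%) and HHC (53.3%), against 3.09% in C. In this class Angpt2 stood at 1.88, 3.75 and 10.8 CPM in C, CC and CCC, from 6, 4 and 8 UMIs. It stood at 41.9 CPM in H and 53.5 in HH, from 482 and 521 UMIs, but at 6.67 in CCH and 23.2 in HCH. After the return to chow it stood at 20.2 CPM in HC and 44.4 in HHC. Both libraries returned to chow lay above all chow libraries, as for 19.9% of genes, while CCH, with 4 weeks of HFD in all, lay inside the chow range. Among mice of the same age that ate HFD in the last 4 weeks, HCH exceeded CCH by 3.47 times (2.41 to 5.15).

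The log2 difference of Angpt2 from chow in macrophage-like nuclei was 2.72 ± 0.79 on HFD (edgeR adjusted p = 0.0758) and 2.85 ± 0.86 after it (edgeR adjusted p = 0.174), and neither passed the test. The ratios of 2 libraries were 22.3 (10.2 to 61.2) for H to C, 14.3 (5.54 to 52.5) for HH to CC, 5.39 (2.01 to 20.4) for HC to CC and 4.10 (2.06 to 9.56) for HHC to CCC. Mcph1, which shares the locus, had a narrower range in these nuclei, at 77.2 to 134 CPM, but split the libraries in the same way. It stood at 77.2 to 92.9 CPM on chow and 90.9 in CCH. It stood at 99.8 (HH) to 134 CPM (HC) in H, HH, HCH, HC and HHC. The part of Mcph1 in the Angpt2 level was not tested. Macrophages led by lipid-associated markers such as Trem2 and Gpnmb, which mark lipid-laden macrophages of obese fat, held more Angpt2 than those led by perivascular markers such as Lyve1 and Cd163 within each HFD-exposed library: 46.2 against 27.5 CPM in H, 58.0 against 45.4 in HH, 38.0 against 6.03 in CCH, 29.6 against 17.5 in HCH, 25.8 against 5.60 in HC and 50.2 against 20.6 in HHC. Lipid-associated markers led in 1.89% (CC) to 7.79% (CCC) of the macrophage-like nuclei of chow libraries and 2.18% in CCH, against 43.4% in HCH, 68.9% in HC, 69.2% in HH, 73.2% in H and 83.0% in HHC. Perivascular-marker nuclei alone ran from 1.95 CPM in C to 45.4 in HH. The lipid-associated level ran from 0 to 58.0 CPM over all 9 libraries, with a median of 38.0. Given this median, the chow libraries did not all lie below CCH, HCH and HC in it, so levels in this range were not confined to HFD-exposed libraries. The chow libraries had small shares of such nuclei. The lipid-associated value of CCH rests on 5 UMIs, and both marker sets include genes that also gated the class.

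Angpt2 was also measured in other classes. Adipocyte-like nuclei held 4.11, 10.4 and 20.6 CPM in C, CC and CCC, 52.1 in H, 67.0 in HH, 15.2 in CCH and 28.9 in HCH, and 11.6 in HC and 45.0 in HHC. Progenitor-like nuclei held 4.41, 8.36 and 9.47 CPM on chow, 21.9 in H, 22.8 in HH, 5.15 in CCH and 10.0 in HCH, and 9.90 in HC and 19.1 in HHC. T/NK-like nuclei had no UMI in C, where 3 counts would have been 11.7 CPM, and 58.2 CPM in H, 39.2 in HH and 49.0 in HHC, from 9, 16 and 35 UMIs. In each of these classes H, HH and HHC were the 3 highest libraries, while HC lay inside the chow range in adipocyte-like nuclei. The summed level of the 15 macrophage markers in adipocyte-like nuclei was 682 to 942 CPM on chow, 747 to 1695 on HFD and 841 to 2648 after it, and in progenitor-like nuclei 419 to 655, 365 to 2798 and 1166 to 3179. In T/NK-like nuclei it was 847 to 1520.0, 761 to 5319.9 and 2627 to 5445 CPM. The part of macrophage RNA in the Angpt2 levels of other classes was not tested.

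**Figure D5:**
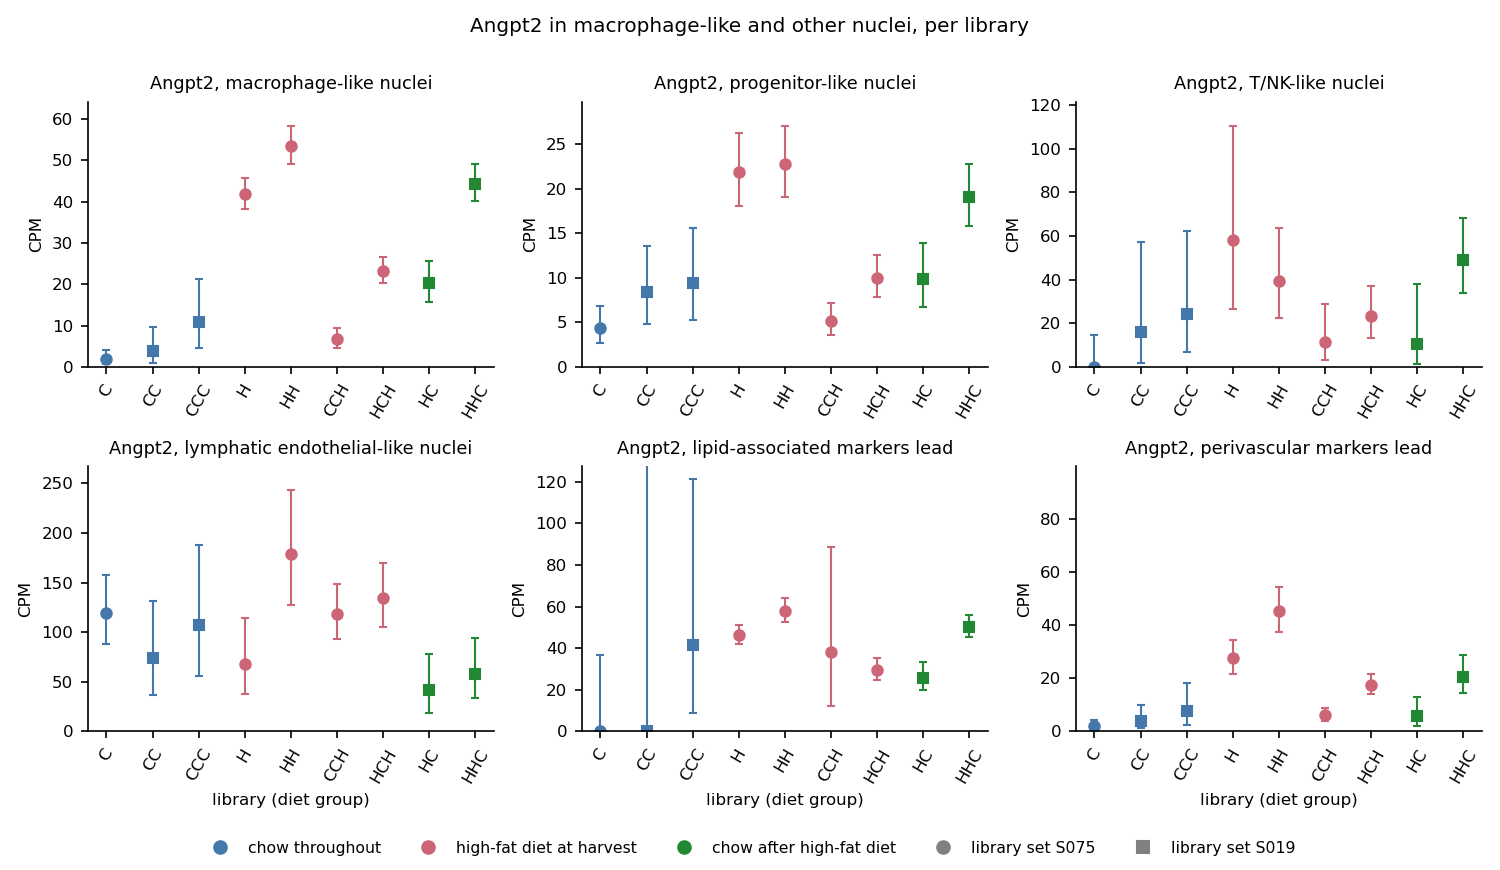
Angpt2 level (CPM, linear axes from 0) in 4 nucleus classes and in macrophage-like nuclei led by lipid-associated or perivascular markers, 1 point per library with its exact Poisson 95% interval, coloured by diet state and shaped by library set. H, HH and HHC are highest in macrophage-, progenitor- and T/NK-like nuclei but not in lymphatic endothelial-like nuclei, and the interval of CC in the lipid-associated panel (6 nuclei) runs past the axis.

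Tek (chromosome 4, 94739289 to 94874976, plus strand), the angiopoietin receptor, was highest in blood endothelial-like nuclei, by 1.39 ± 0.26 on the log2 scale over lymphatic endothelial-like nuclei (edgeR adjusted p = 1.04e-05), where 13.7% of genes were called higher. Progenitor-like nuclei came next to the lymphatic class, without a called difference between them (0.20 ± 0.26, edgeR adjusted p = 0.626), and exceeded mast-like nuclei by 1.64 ± 0.47 (edgeR adjusted p = 0.00561). Through their number, progenitor-like nuclei carried a median of 54.5% of the Tek UMIs and blood endothelial-like nuclei 32.6%. Tek in blood endothelial-like nuclei stood at 449.5, 277 and 304 CPM in C, CC and CCC, at 617 in H, 552 in HH, 640.4 in CCH and 579 in HCH, and at 404 in HC and 525 in HHC. All HFD libraries lay above the chow libraries, as for 6.08% of genes, and the difference of 0.76 ± 0.21 on the log2 scale did not pass the test (edgeR adjusted p = 0.0921). Within the S075 set the gap between C and the HFD libraries was small, with a ratio of 1.37 (1.21 to 1.55) for H to C. In progenitor-like nuclei Tek stood at 171, 168 and 181 CPM on chow, 117 in H, 132 in HH, 278 in CCH and 184 in HCH, and 118 in HC and 137 in HHC, so that the order seen in endothelium did not recur there.

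Tie1 (chromosome 4, 118471191 to 118490061, minus strand) had nearly the same level in both endothelial classes. Blood and lymphatic endothelial-like nuclei did not differ by the test (0.13 ± 0.25 on the log2 scale, edgeR adjusted p = 0.804), and the lymphatic class exceeded mural-like nuclei by 2.92 ± 0.33 (edgeR adjusted p = 5.04e-12). Tie1 in blood endothelial-like nuclei stood at 121, 123 and 148 CPM in C, CC and CCC, at 156 in H, 133 in HH, 149 in CCH and 132 in HCH, and at 96.6 in HC and 127 in HHC. The diet states overlapped, and the log2 difference of HFD from chow was 0.09 ± 0.18.

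Each diet state was next taken as a group of libraries (chow C, CC and CCC; HFD at harvest H, HH, CCH and HCH; chow after HFD HC and HHC). All 10 members passed the filter on low counts in blood endothelial-, adipocyte-, progenitor- and macrophage-like nuclei. In each of the 8 contrasts edgeR called 0 of the 10 members and 0% of all genes tested (10751, 14339, 15456 and 15000). At an unadjusted p under 0.05, HFD at harvest against chow gave 3 members in blood endothelial-, 5 in adipocyte-, 3 in progenitor- and 7 in macrophage-like nuclei, and chow after HFD gave 1, 2, 2 and 2. Of all genes, 17.6%, 23.9%, 24.1% and 31% had such a p in the HFD contrasts and 6.35%, 8.54%, 10.2% and 16.6% in the others, in the same order of classes. DESeq2 called 2, 0, 3 and 7 members for HFD, beside 5.94%, 8.07%, 8.45% and 16.4% of all genes. For chow after HFD it called 0, 0, 1 and 2 members, beside 0.167%, 0.586%, 1.12% and 5.19%. The counts also turned on the library CCH: without it edgeR called 1 member in blood endothelial-, 1 in adipocyte-, 3 in progenitor- and 6 in macrophage-like nuclei for HFD against chow, where 6.12%, 14.4%, 13.6% and 30.5% of all genes were called. It then called 0, 0, 1 and 2 for chow after HFD, where 0.282%, 0.0889%, 0.711% and 6.61% were called, and the adipocyte-like fits tested 9 members. Without C it called 3 in blood endothelial- and 1 in progenitor-like nuclei for HFD, beside 7.07% and 1.25% of all genes. The libraries on HFD are all of set S075, which they share with C alone among the chow libraries, so in the HFD contrasts diet and set cannot be told apart except through C. HC and HHC share set S019 with CC and CCC. With the set as a term, edgeR called 0 members and 0% of all genes in each contrast. In macrophage-like nuclei the summed adipocyte and blood endothelial markers were also lower on HFD than on chow (values above). Their part in the member counts was not tested.

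HFD in the history was also compared with chow of the same age, in a fit chosen after the data were seen. C and H (18 weeks), CC and HC (26 weeks) and CCC and HHC (39 weeks) gave 3 pairs, each within 1 library set, of which only H was on HFD at harvest. With the age pair as a block, edgeR called 2 of 10 members in progenitor-like nuclei (Vegfa and Vegfc) and 2 of the 9 tested in macrophage-like nuclei (Vegfa and Angpt2), beside 4.31% and 15% of all genes. It called 0 of 10 in blood endothelial- and 0 of 9 in adipocyte-like nuclei, beside 1.14% and 0.685% of all genes. At an unadjusted p under 0.05 these were 2 and 5 members, beside 9.36% and 10.9% of all genes.

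Vegfa was lower in the HFD-exposed library of all 3 pairs, by a log2 difference of -1.64 ± 0.20 in progenitor-like nuclei (edgeR adjusted p = 0.00612) and -1.91 ± 0.33 in macrophage-like nuclei (edgeR adjusted p = 0.00957). Angpt2 in macrophage-like nuclei was higher in all 3 pairs, by 2.96 ± 0.49 (edgeR adjusted p = 0.00843). These 3 calls held with each pair left out in turn, at edgeR adjusted p from 0.00202 to 0.0298. The left-out fits share libraries and hold only 2 pairs each. Like the fit of all 3 pairs, they leave few residual degrees of freedom. The p-values of all these fits therefore rest largely on the variance that edgeR shares between genes, and less on the spread of these pairs. Vegfc in progenitor-like nuclei was lower in all 3 pairs, by -0.99 ± 0.22 (edgeR adjusted p = 0.0482), a call that was lost without CCC and HHC (adjusted p = 0.415) and without the block (adjusted p = 0.137). The 14 blood endothelial markers, all detected, summed in progenitor-like nuclei to 237 to 638 CPM on chow, 108 to 201 on HFD and 248 to 378 after it, and their part in the Vegfc difference was not tested. Vegfa in blood endothelial-like nuclei gave -1.80 ± 0.34 (edgeR adjusted p = 0.0609), and was called without C and H (adjusted p = 0.0159) or without CC and HC (adjusted p = 0.0232) but not without CCC and HHC (adjusted p = 0.512). Angpt2 was not called over the 3 pairs in adipocyte- (1.54 ± 0.56, edgeR adjusted p = 0.377) or progenitor-like nuclei (1.13 ± 0.40, edgeR adjusted p = 0.183). It was called there without CC and HC (adjusted p = 0.0405 and 0.0274), but not without C and H (0.362 and 0.452) or without CCC and HHC (0.329 and 0.558). The parts of adipocyte RNA in the Vegfa differences and of macrophage composition in the Angpt2 difference were not tested.

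Other genes of the pathway were taken from a list of 28. Ptprb, the phosphatase that restrains TEK, was a blood endothelial transcript at 955 (CC) to 2268 CPM (CCH), and the VEGF co-receptor genes Nrp1 and Nrp2 stood at 729.9 (HH) to 979 (HCH) and 317 (CC) to 632 CPM (HC) there. Epas1, the oxygen-regulated factor of endothelium, stayed between 563 (H) and 646 CPM (HCH) in blood endothelial-like nuclei, whereas Bnip3, a hypoxia-response gene, was highest in adipocyte-like nuclei at 142 (HCH) to 519 CPM (C). Ccbe1, which is needed to activate VEGF-C, was highest in mesothelial-like nuclei at 739.5 (HC) to 1096 CPM (HHC), and Vegfd, a further FLT4 ligand, in progenitor-like nuclei at 136 (HC) to 284 CPM (HCH). In the state fits 23 of the list were tested in blood endothelial-, 22 in adipocyte-, 26 in progenitor- and 23 in macrophage-like nuclei, and edgeR called 0 in each contrast. At an unadjusted p under 0.05 for HFD against chow, 1 was higher and 3 were lower in blood endothelial-, 0 and 6 in adipocyte-, 0 and 11 in progenitor- and 2 and 10 in macrophage-like nuclei, where 17.6%, 23.9%, 24.1% and 31% of all genes had such a p in either direction. In progenitor-like nuclei the 14 adipocyte markers summed to 1187 to 4328 CPM on chow and 296 to 845 on HFD. The 14 blood endothelial markers summed there to 237 to 638 and 108 to 201 CPM. In macrophage-like nuclei these sums were 1545 to 4313 and 378 to 1217, and 249 to 619 and 100.4 to 183 CPM. Their part in the differences of the list was not tested. The median log2 difference of the list for HFD against chow was -0.04 in blood endothelial-like nuclei (0.02 over all genes tested), -0.65 in adipocyte- (-0.04), -0.80 in progenitor- (0.0064) and -0.98 in macrophage-like nuclei (0.05). For chow after HFD it was -0.27 (0.01), -0.20 (-0.05), -0.42 (-0.0056) and -0.02 (0.01) in the same order of classes. At an unadjusted edgeR p under 0.05, 0 were then higher and 0 lower, 0 and 0, 0 and 1, and 3 and 0. Of all genes, 6.35%, 8.54%, 10.2% and 16.6% had such a p in either direction.

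For pairs of libraries, a member and class were compared where both libraries together held at least 20 UMIs, and a ratio of at least 2-fold was counted over 7 classes. These counts compare libraries and carry no test. H with C gave 29 of 55 ratios past 2-fold (8 higher and 21 lower), against 29.4% of all gene and class pairs (20.6% higher and 8.87% lower). HH with CC gave 37 of 58 (10 and 27), against 33.1% (22.9% and 10.2%), and HH with C gave 30 of 59 (11 and 19), against 30.4% (22.2% and 8.23%). HC with CC gave 19 of 62 (5 and 14), against 18.1% (7.89% and 10.2%), and HHC with CCC 21 of 58 (6 and 15), against 16.2% (9.25% and 6.92%). HCH with CCH gave 18 of 61 (13 higher and 5 lower), against 16.8% (13.9% and 2.92%). Several of these comparisons share a library. In macrophage-like nuclei all 8 members tested for HH with CC passed 2-fold (2 higher and 6 lower), against 41.6% of genes. This was the highest share of any class and comparison, and HH and CC differ in age and library set. The 14 adipocyte markers summed there to 1545 to 4313 CPM on chow and 378 to 1217 on HFD. The 14 blood endothelial markers summed to 249 to 619 and 100.4 to 183 CPM. Their part in this count was not tested. The ratio of Vegfa in progenitor-like nuclei was 0.363 (0.311 to 0.424) for H to C, 0.353 (0.298 to 0.419) for HH to CC, 0.285 (0.229 to 0.353) for HC to CC, 0.392 (0.319 to 0.483) for HHC to CCC and 0.505 (0.426 to 0.598) for HCH to CCH. Vegfc in mesothelial-like nuclei had a ratio of 1.89 (1.49 to 2.38) for H to C, 1.92 (1.36 to 2.77) for HH to CC, 1.21 (0.967 to 1.504) for HH to C, 2.65 (1.79 to 3.99) for HC to CC, 1.57 (1.13 to 2.22) for HHC to CCC and 2.22 (1.90 to 2.59) for HCH to CCH. The 14 progenitor markers summed in this class to 4345 to 5244 CPM on chow, 5254 to 8560 on HFD and 4559 to 5395 after it. Their part in the Vegfc ratios was not tested. In blood endothelial-like nuclei 0 of the 10 members passed 2-fold for HHC with CCC, where 13.3% of genes did. This was the lowest count of the class. The highest was 5 of 10 for HH with CC. Over the 7 classes together, 33.1% of all gene and class pairs passed for HH with CC and 16.2% for HHC with CCC.

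Over all kept nuclei of a library, where fewer nuclei of a class and less RNA per nucleus cannot be told apart, each of the 10 members had its highest library at least 2-fold above its lowest, as did 70.2% of 17231 genes. Vegfa stood at 317, 226 and 207 CPM in C, CC and CCC, at 40.5 in H, 53.7 in HH, 114 in CCH and 41.3 in HCH, and at 75.4 in HC and 46.0 in HHC, beside adipocyte-like shares that ran from 21.5% in C to 1.94% in H. Angpt2 stood at 6.80, 10.6 and 18.9 CPM on chow, at 35.1 in H, 42.7 in HH, 11.4 in CCH and 20.6 in HCH, and at 14.3 in HC and 34.9 in HHC, so the diet states overlapped. Flt1 ran from 38.9 CPM in H to 120.4 in CCC over whole libraries, beside its range of 876 to 1339.7 CPM within blood endothelial-like nuclei. These whole-library ranges depended on the upper limit on genes. Without it Flt1 ran from 30.6 CPM in H to 223 in CC, and the lowest Vegfa library was HHC at 71.4 CPM.

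Genes whose level over the 12 classes was most like that of a member were sought among 20711 genes by Pearson correlation of mean log2(CPM + 1), a description over 12 points that share libraries. The nearest to Tie1 were Bmx (0.97), Ushbp1 (0.97) and Ecscr (0.97). Robo3 (0.97) was nearest to Flt4, Dchs1 (0.95) to Tek, Efna1 (0.94) to Kdr, Fez1 (0.91) to Vegfc and Rhbdl3 (0.92) to Angpt1. The haemoglobin gene Hbb-bs (0.98) came nearest to Flt1, and Dnajb5 (0.90) was nearest to Angpt2. Gm47126 (0.97) was nearest to Vegfa and D230025D16Rik (0.97) to Vegfb.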

How the data were processed

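The authors deposited UMI counts per gene and nucleus for 9 libraries, made with Cell Ranger 6.1.2 on mm10 with introns counted, and the submitters' notes also name Seurat 4.1.0. The deposited counts were not corrected for free RNA, and each group has 1 library. The p-values of the diet state fits therefore measure only the spread between libraries of a diet state. Those of the class fit measure the spread of the sums per library and class around class and library terms, over all diet states. Those of the age pair fit, with few residual degrees of freedom, rest largely on the variance that edgeR shares between genes. They measure less the spread of the difference between pairs. The members and gene lists were chosen with earlier results of these data known. Nuclei with 500 to 3000 genes and at most 40000 UMIs were kept, which left out 6.92% to 24.1% of barcodes for more genes than that. Doublets were scored with Scrublet (scanpy 1.11.5), and where its threshold marked under 0.5%, the highest scores were removed at 0.8% per 1000 nuclei (CC, CCC, HC and HHC).

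A nucleus received a class with UMIs of at least 2 distinct markers and a margin of 2 over the next class, after a Poisson step against the background of its library (p of 0.001) that was chosen after class counts had been seen. UMIs were summed per library and class, without mitochondrial genes and Malat1. Classes (with a library block) and diet states were compared with edgeR 4.0.16 (quasi-likelihood test, two-sided, Benjamini-Hochberg adjustment over all genes tested), using classes of at least 20 nuclei, and with DESeq2 1.42.0 as an alternative. A fit of HFD in the history against chow with the age pair as a block was added after the data were seen. The values after ± are approximate standard errors (SE). Each is the absolute log2 difference divided by the square root of the quasi-likelihood F, and is unreliable for differences near 0. Ratios of 2 libraries carry exact conditional 95% intervals and levels exact Poisson ones. On simulated counts, edgeR recovered 92.0% of 200 genes changed by 2 on the log2 scale in blood endothelial-, 94.5% in adipocyte-, 98.5% in progenitor- and 90.5% in macrophage-like nuclei for HFD against chow. The changed genes were drawn only from genes above a minimum mean CPM. The recovery therefore does not cover members at lower levels, such as Angpt2, Flt4 and Tie1 in macrophage-like nuclei. The simulated counts were drawn independently for each gene, without differences of age or library set shared between genes. The recovery therefore cannot say how many real changes these fits missed. The text names the 10 members, genes of a list of 28 pathway genes and the genes most like each member across classes. Start regions come from RefSeq, which matched 8 of the 10 members.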

Additional observations from a re-analysis of the deposited data

How the results depend on the processing

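The number of members called by diet state, 0 in each contrast, depended on the processing. For HFD against chow, leaving the filter on low counts out gave 2 in blood endothelial-, 3 in adipocyte-, 3 in progenitor- and 4 in macrophage-like nuclei, and 1 each in blood endothelial-, progenitor- and macrophage-like nuclei for chow after HFD. Of all genes, 5.38%, 7.28%, 4.23% and 5.67% were then called for HFD, and 1.23%, 0.318% and 0.650% in those 3 classes for chow after HFD. DESeq2 gave 2, 0, 3 and 7 for HFD, and 1 in progenitor- and 2 in macrophage-like nuclei for chow after HFD, beside 5.94%, 8.07%, 8.45% and 16.4% of all genes, and 1.12% and 5.19%. With H and HH as the only HFD libraries the counts were 1, 3, 5 and 8, and 1 and 2 for chow after HFD in progenitor- and macrophage-like nuclei (9 members tested in the latter), beside 6.30%, 15.1%, 16.3% and 35.3% of all genes, and 0.885% and 9.38%. Without the upper limit on genes 2 were called in adipocyte-like nuclei, beside 5.34% of all genes. Leaving out 1 library at a time gave 0 to 3 in blood endothelial-, 0 to 1 in adipocyte-, 0 to 3 in progenitor- and 0 to 6 in macrophage-like nuclei for HFD, and 0 to 0, 0 to 0, 0 to 1 and 0 to 2 for chow after HFD. At their highest these fits called 7.07%, 14.4%, 13.6% and 30.5% of all genes for HFD, and 0.711% and 6.61% in progenitor- and macrophage-like nuclei for chow after HFD. The other settings (DESeq2 size factors in edgeR, a library set term, a stricter gate, no doublet removal, and a gate without the background step, added after seeing the data) gave 0 members, beside 0% to 0.670% of all genes. The number of members whose highest class exceeded the next was 8 (36.6% of all genes), 7 with DESeq2 (37.7%), 6 without the upper limit on genes (39%) and 7 to 9 with 1 library left out, where the share of all genes was not computed. The HFD difference of Angpt1 in adipocyte-like nuclei ran from -1.54 (without CCC) to 0.46 (without C) with 1 library left out, and was -2.28 with the library set as a term. With C in place of CC as the control of HH, the log2 ratio changed sign to 0.71 for Tie1 in adipocyte-like, 0.052 for Kdr in progenitor-like, 1.74 for Flt1 and 1.02 for Tek in mural-like, and 0.29 for Vegfb and 0.75 for Kdr in blood endothelial-like nuclei. The cause of these changes was not tested. Replicate numbers pair no libraries, since each group has 1. Within age pairs, added after seeing the data, 0 members were called in blood endothelial-, 0 in adipocyte-, 2 in progenitor- and 2 in macrophage-like nuclei. Without the age pair block the counts were 0, 0, 1 and 2, beside 0.0887%, 0%, 0.422% and 7.93% of all genes. With 1 pair left out they ran from 0 to 1, 0 to 1, 1 to 3 and 2 to 2, beside 0% to 4.30%, 0.961% to 2.47%, 1.17% to 8.38% and 8.56% to 13.2% of all genes. Small classes hold few UMIs of a member, as for Angpt2 in lymphatic endothelial-like nuclei (9 to 74 per library), which limits the precision of their levels.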
